A study of Mus musculus with 20 samples.

Results

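Transcripts of the D cyclins (Ccnd1, Ccnd2 and Ccnd3), the G1 kinases that pair with them (Cdk4 and Cdk6), 4 CDK inhibitors (Cdkn1a, Cdkn1b, Cdkn2c and Cdkn2d) and the retinoblastoma gene Rb1 were followed in single thymic precursors of intraepithelial lymphocytes (IELPs). These 10 genes were chosen by name for their place in the G1 phase of the cell cycle, out of 25246 genes measured, and all 10 were found in every table. Cells came from mice of 3 genotypes, which all carried the T-bet ZsGreen reporter (TBGR), a transgene that reports T-bet by fluorescence. The sample labels do not tell animals apart, so the cells of a genotype are treated as 1 mouse here. Ages are those of the labels, while the text of the study gives 2 to 3 weeks for the C-myc genotypes. The TBGR mouse was 4 weeks old and wild type by its label. The TBGR C-myc fl/fl mouse was 2 weeks old and had floxed C-myc alleles. The TBGR C-mycD/DCd4 mouse was also 2 weeks old and had lost C-myc through a Cre recombinase driven by Cd4, a promoter that is active from the CD4+CD8+ double positive stage of the thymus. Thymocytes were depleted of CD4+ and CD8+ cells and sorted as TCRb+ IELPs, which the study names NK1.1- while the design text deposited with the data says NK1.1+. The gates on CD122, a receptor chain for IL-2 and IL-15, and on ZsGreen gave 4 populations. Cells without T-bet were either CD122-T-bet- or CD122+T-bet-, and CD122+ cells with intermediate or high reporter signal are called T-bet int and T-bet high here. The C-mycD/DCd4 mouse is represented by its T-bet- cells.

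D cyclins are induced by growth and cytokine signals and bind CDK4 or CDK6, and the active kinase phosphorylates RB1, which releases E2F factors to transcribe the genes of DNA replication. The INK4 inhibitors, here Cdkn2c (p18) and Cdkn2d (p19), block CDK4 and CDK6 themselves, while the CIP/KIP inhibitors Cdkn1a (p21) and Cdkn1b (p27) hold cyclin E and CDK2 in check. In the thymus the expansion of precursors depends on D cyclins, and Cdk4 and Ccnd2 are known targets of C-Myc, a factor that binds the E-box CACGTG with its partner MAX.

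The values were estimated transcript counts from CEL-Seq2, an assay that reads 3′ ends and counts each molecule once by a UMI. Of 1920 wells with a cell in 20 libraries, 1413 cells had at least 2000 transcripts without mitochondrial genes and spike-ins and were kept. Transcripts were summed over the cells of a population and are given as CPM, scaled to a total of 1000000, and 1 library and population held 22 to 94 cells and a group 699596 to 1468961 transcripts. The 8 libraries of the C-myc fl/fl mouse each held 2 populations that were neighbours in the order above. Among 190 pairs of libraries, 90 used the same 96 cell barcodes and 100 shared none, and no 2 cells had identical counts. Il2rb, which encodes CD122, stood at 2.61 to 9.88 CPM in CD122- and 222 to 515 CPM in CD122+ groups. With no replicate mice told apart, no test was possible, so intervals (95%, in brackets) cover counting error only. Libraries of a mouse were treated as technical units, not as replicates of a condition.

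The targeted gene, Myc, was low everywhere. Its 4 C-myc fl/fl libraries had 63.0, 14, 62.3 and 24.4 CPM in CD122-T-bet- cells and 73.8, 125, 135 and 10.6 CPM in CD122+T-bet- cells. The C-mycD/DCd4 libraries had 16.7 and 30.0 CPM in CD122-T-bet- and 44.5 and 9.96 CPM in CD122+T-bet- cells, and 18 Myc transcripts remained in the latter. Myc transcripts were thus fewer in sum, but the libraries of the genotypes overlapped in both populations, and where the 3′ tag lies relative to the deleted part is not given in the sources used here. Genotype, mouse and library cannot be told apart, and for the TBGR mouse neither can age.

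Each comparison counted genes by 1 rule. A gene met it when its sum was at least 100 transcripts in either group, its log2 ratio lay at least 1.5-fold from the median ratio of all such genes, and no library of one group reached into the range of the other. Rose and fell, higher and lower refer to genes that met this rule, and log2 values are differences from that median unless stated. A second rule with at least 20 transcripts served the rarer inhibitors, for which values are still given from the median of the first.

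Ccnd2, on chromosome 6 (GRCm38, 127125162 to 127152193, minus strand), was the most frequent D cyclin in these cells by transcripts. It gave 6390 transcripts, while Ccnd3 (chromosome 17, 47505051 to 47599691, plus strand) gave 301 and Ccnd1 (chromosome 7, 144929931 to 144939925, minus strand) gave 13. Ccnd2 made up 92.0% to 98.3% of D cyclin transcripts in 9 of 10 groups, and 76.1% (95% binomial interval 69.9 to 81.6) in CD122-T-bet- cells of the C-mycD/DCd4 mouse. Ccnd1 reached at most 2 transcripts in any group, below the limit of 3 counts used here for detection.

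The 2 TBGR libraries had 732 and 479 CPM of Ccnd2 in CD122-T-bet-, 782 and 794 in CD122+T-bet-, 721 and 748 in T-bet int and 1290 and 951 in T-bet high cells. The 4 C-myc fl/fl libraries had 228, 349, 325 and 140 CPM in CD122-T-bet-, 636, 761, 911 and 191 in CD122+T-bet-, 806, 660, 554 and 386 in T-bet int and 484, 556, 462 and 484 in T-bet high cells. Those of the C-mycD/DCd4 mouse had 251 and 195 CPM in CD122-T-bet- and 1362 and 1583 in CD122+T-bet- cells. The last group was the highest of all 10 and held no library in reach of another group, and the CD122-T-bet- cells of the same mouse were the lowest, in the range of the C-myc fl/fl libraries. Ordered by level, the groups after it were TBGR T-bet high, TBGR CD122+T-bet- and TBGR T-bet int, each apart from its neighbour, while from there on to T-bet high cells of the C-myc fl/fl mouse the library ranges of neighbours touched.

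**Figure D1:**
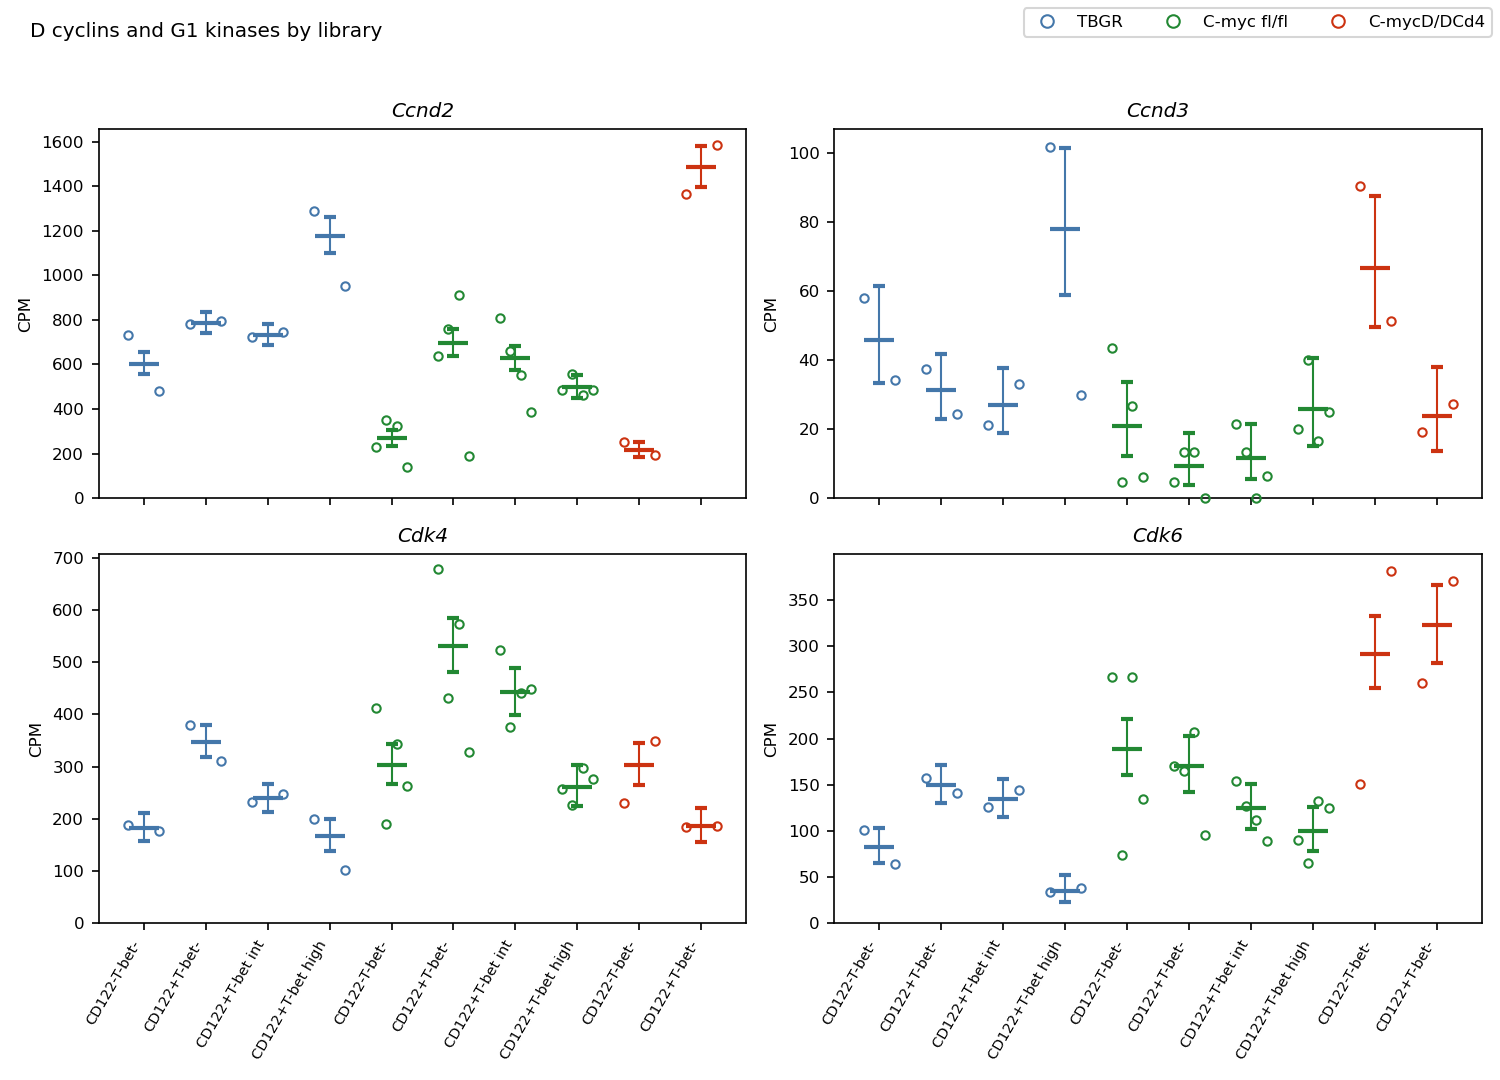
CPM of Ccnd2, Ccnd3, Cdk4 and Cdk6 on linear axes in the 10 groups, coloured by genotype. Open circles are libraries and bars the sum over all cells with its 95% Poisson interval; Ccnd2 in CD122+T-bet- cells of the C-mycD/DCd4 mouse stands at 1486 CPM against 698 CPM in the C-myc fl/fl mouse, where Cdk4 stands at 531 CPM against 186 CPM.

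Single cells differed widely in Ccnd2. After thinning to 2000 transcripts per cell, the variance over cells was 3.86 times the mean in CD122+T-bet- cells of the C-mycD/DCd4 mouse, 3.01 times in TBGR CD122-T-bet- cells and 1.48 to 2.59 times in the other groups. For Cdk4 it was 0.913 to 2.14 times, where 1 is what counting alone gives. The cell richest in Ccnd2 held 43 of its transcripts, in the CD122+T-bet- population of the C-mycD/DCd4 mouse. A transcript of Ccnd2 was seen in 86.9% of these cells, against 77.0% in the C-myc fl/fl mouse (76.8% and 56.2% after thinning).

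Ccnd3 had 21.2 to 102 CPM in TBGR libraries and 0 to 43.6 CPM in those of the C-myc fl/fl mouse. Its highest library, TBGR T-bet high library 1, had 102 CPM and its partner 30.0 CPM. Libraries without C-myc had 90.3 and 51.4 CPM in CD122-T-bet- and 19.1 and 27.4 CPM in CD122+T-bet- cells, which did not overlap.

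Cdk4, on chromosome 10 (127063534 to 127067920, plus strand), had 188 and 177 CPM in CD122-T-bet-, 379 and 311 in CD122+T-bet-, 232 and 247 in T-bet int and 199 and 103 in T-bet high TBGR libraries. The C-myc fl/fl libraries had 412, 191, 342 and 262 CPM in CD122-T-bet-, 678, 432, 573 and 329 in CD122+T-bet-, 523, 375, 442 and 449 in T-bet int and 257, 226, 297 and 275 in T-bet high cells. The C-mycD/DCd4 libraries had 231 and 349 CPM in CD122-T-bet- and 184 and 187 CPM in CD122+T-bet- cells. Cdk4 was thus at its highest in CD122+T-bet- cells of both mice with intact C-myc and lower again in T-bet high cells, and the CD122+T-bet- cells without C-myc lay beside TBGR CD122-T-bet- cells. In the order of all 10 groups, the library ranges of neighbours touched except between TBGR T-bet int and the C-mycD/DCd4 CD122+T-bet- cells.

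Cdk6, on chromosome 5 (3341485 to 3531008, plus strand), had 101 and 64.4 CPM in CD122-T-bet-, 157 and 141 in CD122+T-bet-, 126 and 144 in T-bet int and 33.9 and 38.6 in T-bet high TBGR libraries. The C-myc fl/fl libraries had 267, 74.4, 267 and 134 CPM in CD122-T-bet-, 171, 165, 208 and 95.5 in CD122+T-bet-, 154, 127, 112 and 88.6 in T-bet int and 90.7, 65.2, 132 and 125 in T-bet high cells. The C-mycD/DCd4 libraries had 151 and 382 CPM in CD122-T-bet- and 260 and 371 CPM in CD122+T-bet- cells. TBGR T-bet high cells were the lowest and the only group apart from its neighbour in the order, and the cells without C-myc held the 2 highest sums, although their libraries overlapped with those of the C-myc fl/fl mouse in CD122-T-bet- cells.

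The balance between the kinases therefore differed among groups. Cdk4 gave 61.7% to 82.5% of the transcripts of the pair in the 8 groups with intact C-myc. Without C-myc it gave 51.0% (46.3 to 55.7) in CD122-T-bet- and 36.5% (31.6 to 41.7) in CD122+T-bet- cells, with 33.5% and 41.4% in the 2 libraries of the latter. Each C-myc fl/fl library had 72.4% to 79.9% in CD122+T-bet- cells, so the genotypes did not overlap there.

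Both kinase genes have the E-box in the RefSeq promoter window (GRCm38.p6, 250 bases before to 50 after the start), and these windows are shown because the genes moved in opposite directions between the C-myc genotypes in CD122+T-bet- cells. Capitals mark CACGTG, a palindrome that reads the same on both strands.
Cdk4, chr10:127063285-127063584, plus strand: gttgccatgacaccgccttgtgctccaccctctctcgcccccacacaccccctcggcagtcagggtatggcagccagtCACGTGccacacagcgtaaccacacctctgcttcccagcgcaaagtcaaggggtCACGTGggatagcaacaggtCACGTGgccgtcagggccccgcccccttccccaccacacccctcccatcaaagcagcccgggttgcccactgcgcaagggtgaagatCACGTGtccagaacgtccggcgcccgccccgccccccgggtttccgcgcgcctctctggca
Cdk6, chr5:3343643-3343942, plus strand: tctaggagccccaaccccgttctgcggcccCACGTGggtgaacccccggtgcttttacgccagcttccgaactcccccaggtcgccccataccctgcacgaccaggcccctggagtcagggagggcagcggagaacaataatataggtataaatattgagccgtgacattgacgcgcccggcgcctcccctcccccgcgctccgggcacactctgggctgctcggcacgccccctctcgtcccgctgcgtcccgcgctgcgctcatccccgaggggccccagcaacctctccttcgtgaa
The Cdk4 window holds 4 E-boxes, which start 172, 118, 98 and 11 bases before the start, and the Cdk6 window holds 1, at 220 bases. Of 32851 windows in the same table, 7.15% hold at least 1. The table had windows for 7 of the 10 genes, of which Cdkn2c also had 1 E-box in 1 of its 2 windows and Ccnd3, Cdkn1a, Cdkn1b and Cdkn2d had none. The E2F motifs TTTCCCGC and TTTGGCGC, searched on both strands and held by 1.07% and 0.514% of all windows, were in none of theirs. A match says only that these letters stand in the window.

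Cdkn1b, on chromosome 6 (134920401 to 134925513, plus strand), was the most frequent of the inhibitors with 944 transcripts. TBGR libraries had 101 and 181 CPM in CD122-T-bet-, 121 and 127 in CD122+T-bet-, 124 and 117 in T-bet int and 180 and 85.7 in T-bet high cells. C-myc fl/fl libraries had 0 to 95.2 CPM over all 4 populations, with 82.4, 60.5, 44.5 and 36.6 CPM in CD122-T-bet- and 87.6, 75.7, 45.1 and 0 CPM in CD122+T-bet- cells. The C-mycD/DCd4 libraries had 127 and 90.0 CPM in CD122-T-bet- and 130 and 157 CPM in CD122+T-bet- cells, above every C-myc fl/fl library of the same population. Within each mouse the populations overlapped, except in the C-mycD/DCd4 mouse.

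Cdkn2c, on chromosome 4 (109660876 to 109667189, minus strand), gave 221 transcripts. The TBGR libraries had 2.07 and 2.01 CPM in CD122-T-bet-, 27.1 and 13.0 in CD122+T-bet-, 40.9 and 39.5 in T-bet int and 10.6 and 8.57 in T-bet high cells. The C-myc fl/fl libraries had 9.70, 4.65, 8.90 and 0 CPM in CD122-T-bet- and 59.9, 40.1, 18 and 10.6 CPM in CD122+T-bet- cells. Those without C-myc had 26.8 and 27.9 CPM in CD122-T-bet- and 3.18 and 2.49 CPM, 1 transcript each, in CD122+T-bet- cells. The direction between the CD122- and CD122+ populations was thus opposite in the mouse without C-myc, and in all 3 mice the libraries of the populations did not overlap.

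Cdkn2d (chromosome 9, 21288410 to 21291407, minus strand) had 75.8 and 68.0 CPM in TBGR T-bet int libraries and 23.3 and 17.1 CPM in TBGR T-bet high libraries, with 40.3 to 56.8 CPM in the T-bet- ones. The C-mycD/DCd4 libraries had 62.2 to 76.9 CPM and the C-myc fl/fl libraries 10.6 to 70.5 CPM. Rb1, the substrate of the kinases (chromosome 14, 73183673 to 73325822, minus strand), had 14.9 to 54.8 CPM in libraries of the TBGR and C-mycD/DCd4 mice and 5.50 to 41.5 CPM in the C-myc fl/fl mouse. Its 9 to 65 transcripts per group met the rule in no comparison.

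**Figure D2:**
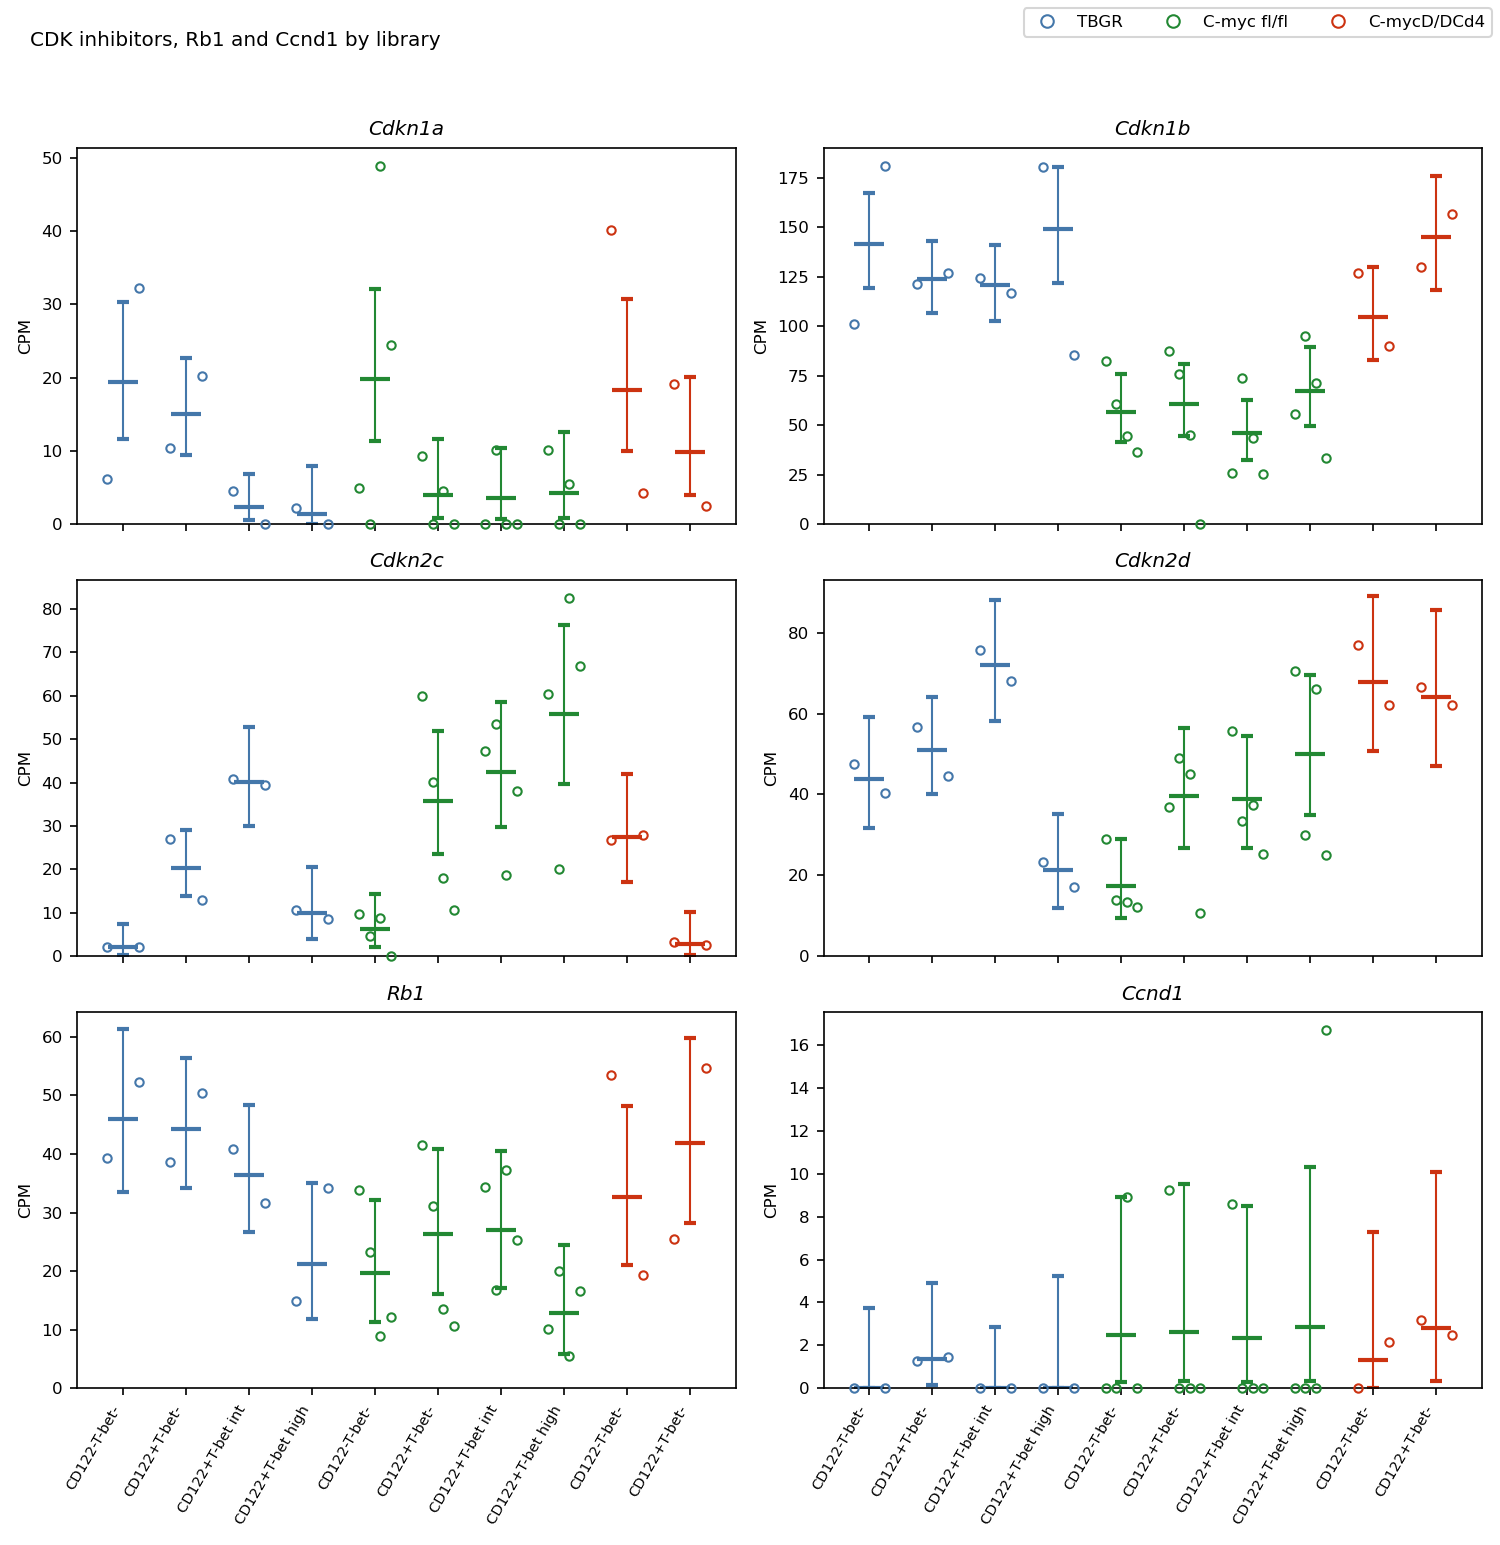
CPM of the 4 inhibitors, Rb1 and Ccnd1 in the 10 groups on linear axes whose ranges differ between genes. Open circles are libraries and bars the sum over all cells with its 95% Poisson interval; Cdkn2c stands at 35.6 CPM in C-myc fl/fl and at 2.79 CPM in C-mycD/DCd4 CD122+T-bet- cells.

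Cdkn1a (chromosome 17, 29090976 to 29100727, plus strand) was rare, at 91 transcripts. It had 6.20 and 32.2 CPM in CD122-T-bet- and 10.3 and 20.2 CPM in CD122+T-bet- libraries of the TBGR mouse, and 1 to 3 transcripts in each T-bet+ population. Each table also holds 96 barcodes that were given no cell. In the 4 TBGR T-bet- tables these held 3 to 7 Cdkn1a transcripts against 3 to 16 in the wells, and they held none in the other 16 tables. Outside the wells lay 18.6% of all Cdkn1a transcripts but 0.535% of the transcripts of all genes, and 0% to 1.30% for the other 9 members. The part of this in the Cdkn1a levels of TBGR T-bet- cells was not tested.

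Over the CD122 step, from CD122-T-bet- cells to CD122+T-bet- ones, Cdk4 rose in the TBGR mouse and fell in the mouse without C-myc, and Ccnd2 rose in the latter. The markers of CD4+CD8+ double positive thymocytes moved with this step in every mouse. Their 6 genes summed to 680 CPM (604 to 759 by library) against 85.1 CPM in the TBGR mouse. The sums were 268 against 25.1 CPM in the C-myc fl/fl mouse and 481 against 29.3 CPM in the C-mycD/DCd4 mouse. All 6 had a transcript in each CD122- group, but only 3 stood above the limit of 3 counts in the TBGR mouse, against 6 in both C-myc genotypes. Rag2 was at 0 in each CD122+T-bet- group. The part of such cells in the values of CD122-T-bet- cells was not tested.

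In the TBGR mouse 4 members passed 100 transcripts and 1 was called, with 12.9% of all tested genes higher and 8.71% lower. Cdk4 rose by 0.59 (0.34 to 0.84) on the log2 scale, just past the 1.5-fold line, from 179 to 510 transcripts. This call was lost at 0.27 after thinning, at 0.57 in cells of at least 3000 transcripts, and at 0.57 and 0.51 without CD122+T-bet- library 1 or CD122-T-bet- library 1. Cdk6 stood at 0.51 (0.15 to 0.91), also with libraries apart, and Ccnd2 at 0.04. By the rule with 20 transcripts, where 17.8% of all genes were higher and 10.5% lower, Cdkn2c was higher too, from 2 to 30 transcripts or 2.69 (1.01 to 6.10). The share of cells with a Mki67 or Top2a transcript, markers of cells in S to M phase, was 9.77% before and 59.7% after the step.

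In the C-myc fl/fl mouse 3 members passed and none was called, with 6.72% of all tested genes higher and 1.58% lower. The uncentred log2 ratio of Ccnd2 within each library was 1.47, 1.12, 1.48 and 0.45, and that of Cdk4 was 0.71, 1.17, 0.74 and 0.33, positive in 4 of 4 libraries for both. All tested genes shared a median of 0.63, however, against which Ccnd2 stood at 0.75 (0.52 to 0.98) and Cdk4 at 0.18 (-0.06 to 0.41) with overlapping libraries. Library 4, with 22 cells, was the low one for Ccnd2 in CD122+T-bet- cells, and without it 1 member was called. Cdkn2c was higher by the rule with 20 transcripts (5.86% higher, 1.15% lower among all genes), from 5 to 27 transcripts or 1.79 (0.50 to 3.63).

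In the C-mycD/DCd4 mouse 4 members passed and 2 were called, with 28.1% of all tested genes higher and 20.7% lower. Ccnd2 rose by 2.82 (2.59 to 3.07), from 166 to 1065 transcripts, and Cdk4 fell by 0.65 on the log2 scale (-0.98 to -0.34), from 232 to 133 transcripts. Without CD122+T-bet- library 1 or 2 Cdk4 stood at -0.53 and -0.39 and was not called, nor was it after thinning, at -0.44. Cdk6 stood at 0.20 (-0.07 to 0.47) and Cdkn1b at 0.52 (0.09 to 0.96). By the rule with 20 transcripts (22.1% higher, 18.6% lower) Ccnd3 at -1.41 and Cdkn2c at -2.96 were lower as well. Cells with Mki67 or Top2a made up 46.9% before and 20.4% after the step, and 10 G2/M genes summed to 2866 and 246 CPM.

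**Figure D3:**
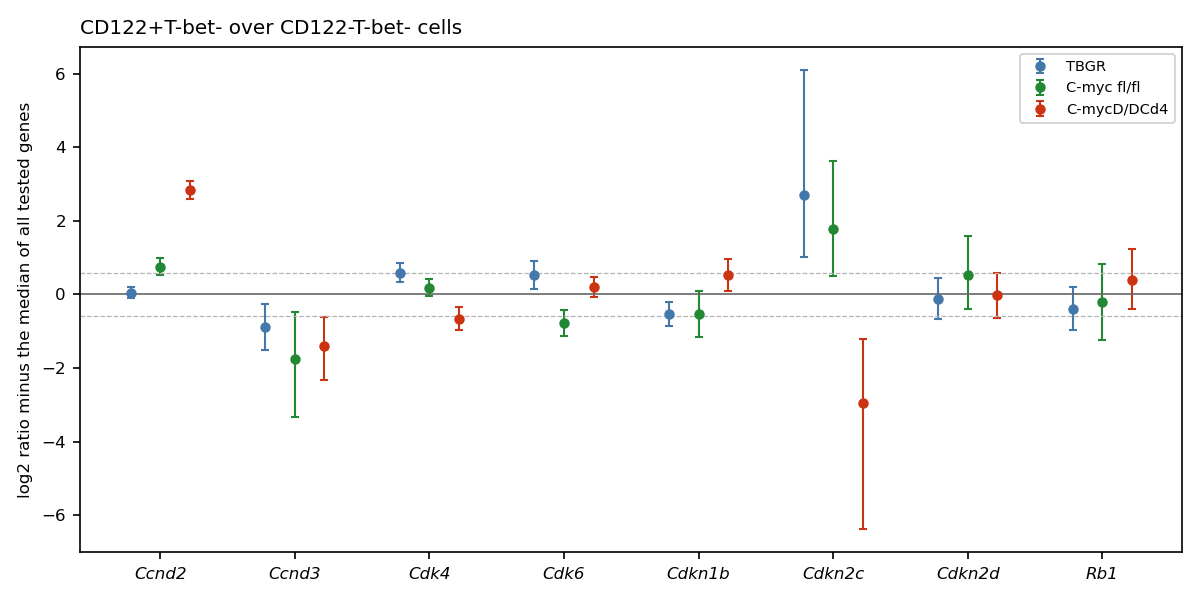
Log2 ratio over the CD122 step (T-bet- cells with CD122 over those without), less the median of all tested genes, for 8 members in the 3 mice. Bars are 95% counting intervals and dashed lines mark 1.5-fold. Ccnd2 stands at 2.82 in the C-mycD/DCd4 mouse and 0.04 in the TBGR mouse. Cdk4, Cdkn1b, Cdkn2c and Rb1 have the opposite sign in the C-mycD/DCd4 mouse to both others. The intervals of Rb1 span 0 in every mouse, and those of Cdk4 and Cdkn1b span 0 in the C-myc fl/fl mouse.

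The later steps share a population with the one before. At the step to T-bet int, 1 of 4 members that passed was called in the TBGR mouse, where 7.62% of all tested genes were higher and 11.3% lower. Cdk4 fell by 0.61 on the log2 scale (-0.82 to -0.40), and stood at -0.54, short of the fold, without T-bet int library 1. With 20 transcripts (10.5% higher, 14.4% lower), Cdkn2c at 0.90 was higher and Cdkn1a at -2.57 lower, while Cdk4 no longer met the fold. In the C-myc fl/fl mouse 0 of 3 were called, and few of all genes were (1.36% higher, 0.0904% lower, or 1.4% and 0.744% with 20 transcripts).

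At the step from T-bet int to T-bet high, Ccnd2 rose by 0.90 (0.76 to 1.03) and Cdk6 fell by 1.68 on the log2 scale (-2.37 to -1.10) in the TBGR mouse, the 2 called of 4 that passed (12.7% higher, 16.4% lower among all tested genes). With 20 transcripts (14.7% higher, 19.8% lower) both INK4 inhibitors were lower, Cdkn2c at -1.72 and Cdkn2d at -1.50. Per cell, Ccnd2 stood at 5.55 transcripts in T-bet int and 5.65 in T-bet high cells. Cells with Mki67 or Top2a made up 66.7% before and 6.80% after this step. T-bet high library 2 differed from library 1 in that 55 against 92 cells passed, Mki67 stood at 94.2 against 4.24 CPM, Tbx21 at 64.3 against 214 CPM and the double positive markers at 266 against 33.9 CPM. Without it Ccnd2 stood at 0.99 and Cdk6 at -1.77, and both were still called, with Cdkn1b at 0.76 called beside them. Without either T-bet int library Cdk6 passed 100 transcripts no longer. In the C-myc fl/fl mouse 0 of 3 were called (4.33% higher, 4.42% lower), and none with 20 transcripts either (2.48% higher, 4.31% lower). There Cdk4 stood at -0.54 with 4 of 4 libraries lower in T-bet high cells, short of 1.5-fold, and 51.8% of its T-bet high cells still had Mki67 or Top2a.

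The C-mycD/DCd4 and C-myc fl/fl mice had the same age by their labels and were compared within each T-bet- population. These comparisons use the same cells as the steps above. In CD122-T-bet- cells 3 members passed and 0 were called (12.4% higher, 2.81% lower). Ccnd2 at -0.79, Cdk4 at -0.48 and Cdk6 at 0.14 had overlapping libraries. With 20 transcripts (12.5% higher, 1.87% lower) Ccnd3 at 1.16, Cdkn2c at 1.57 and Cdkn2d at 1.46 were higher, from 17, 5 and 14 transcripts to 51, 21 and 52. The double positive markers summed to 481 CPM (446 to 535 by library) in the C-mycD/DCd4 and 268 CPM (214 to 342) in the C-myc fl/fl mouse, and their part was not tested. Cells with Mki67 or Top2a made up 32.5% in the C-myc fl/fl and 46.9% in the C-mycD/DCd4 mouse.

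In CD122+T-bet- cells all 4 members that passed were called, with 26.2% of all tested genes higher and 16.5% lower. Ccnd2 rose by 1.11 (0.96 to 1.26), Cdk6 by 0.94 (0.62 to 1.26) and Cdkn1b by 1.27 (0.76 to 1.81). The call of Cdk6 was lost with a 2-fold rule, after thinning and in transcripts per cell. That of Cdkn1b was lost after thinning and with at least 3000 transcripts per cell. Cdk4 fell by 1.49 on the log2 scale (-1.79 to -1.21), from 402 to 133 transcripts. Cdkn2c, at 2 against 27 transcripts, was lower by the rule with 20 transcripts (20% higher, 9.81% lower) at -3.36 (-6.77 to -1.66). Markers of B cells summed to 114 CPM in these C-mycD/DCd4 cells, 12.7 and 194 CPM by library, against 11.9 CPM in the C-myc fl/fl mouse, although the gate on TCRb should leave B cells out. The γδ T cell genes summed to 740 CPM (724 to 752 by library) against 310 CPM (131 to 567), the CD3 genes to 1871 CPM (1728 to 1984) against 1060 CPM (615 to 1177), and Zbtb16, a marker of NKT cells, stood at 16.7 CPM (12.7 to 19.9) against 39.6 CPM (26.7 to 59.9). The γδ sum does not single out γδ T cells, as TBGR T-bet high cells reached 667 CPM with no transcript of its genes Trdc and Sox13. The part of any such cells in these values was not tested. Without library 2, which holds most B cell transcripts, Ccnd2 stood at 1.44, Cdk6 at 1.09, Cdkn1b at 1.58 and Cdk4 at -1.04. The call of Cdkn1b was lost there, as it no longer reached 100 transcripts, and likewise without library 1.

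**Figure D4:**
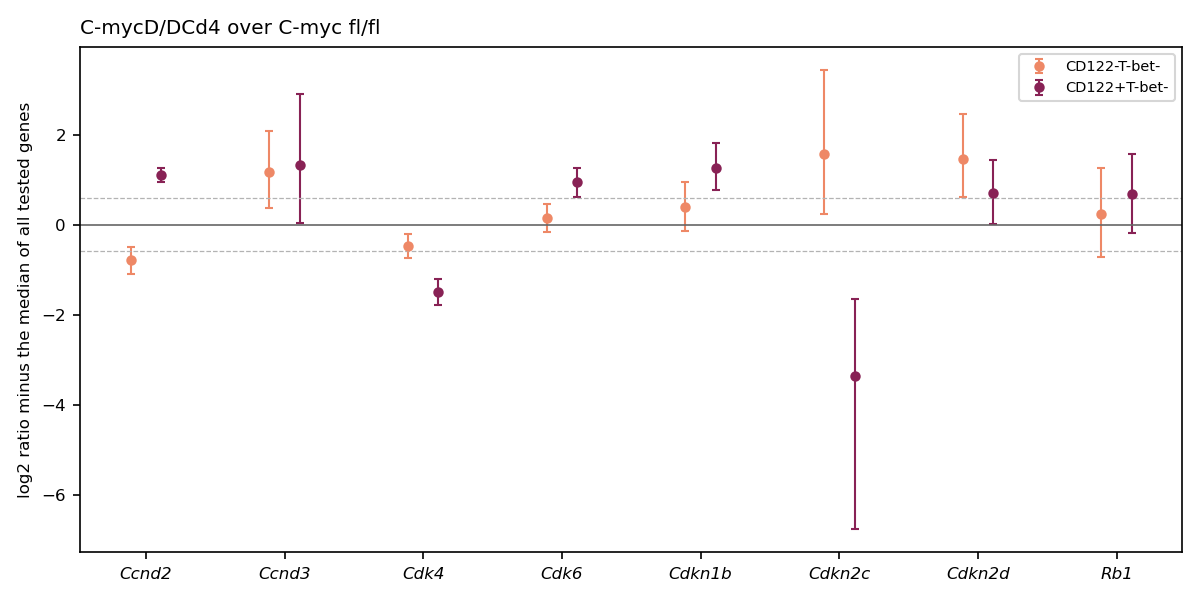
Log2 ratio of the C-mycD/DCd4 over the C-myc fl/fl mouse, less the median of all tested genes, for 8 members in both T-bet- populations. Bars are 95% counting intervals and dashed lines mark 1.5-fold; in CD122+T-bet- cells Ccnd2, Cdk6 and Cdkn1b stand at 0.94 to 1.27 and Cdk4 at -1.49.

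The share of cells with Mki67 or Top2a was 60.7% in C-myc fl/fl and 20.4% in C-mycD/DCd4 CD122+T-bet- cells, so members were also summed in cells without either transcript, 48 and 109 cells. Whether a transcript is seen depends on depth, and the median was 3736 transcripts in these C-myc fl/fl and 4821 in these C-mycD/DCd4 cells. Ccnd2 then had 676, 856, 943 and 151 CPM in the C-myc fl/fl libraries and 1530 and 1519 CPM in the C-mycD/DCd4 libraries, and rose by 0.63. Cdk6 had 93.3, 85.6, 159 and 18.9 CPM against 243 and 413 CPM and rose by 1.25. These 2 were called of 3 that passed, against 22.8% of all tested genes higher and 1.10% lower. Cdk4 had 583, 321, 545 and 132 CPM against 210 and 186 CPM, and stood at -1.57, but the small library 4 took it into overlap. Among cells with Mki67 or Top2a, 74 and 28 of them, Cdk4 had 701, 461, 587 and 582 CPM against 105 and 189 CPM and was lower at -1.41, and Cdk6 had 190, 185, 232 and 194 CPM against 315 and 255 CPM and was higher at 0.98 (8.05% higher, 18.1% lower among all tested genes). Uncentred, the ratio of Cdk6 was 0.49 and that of Cdk4 -1.90.

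Within the C-mycD/DCd4 mouse, the step in cells without Mki67 and Top2a took Ccnd2 from 384 and 347 to 1530 and 1519 CPM, a rise of 1.47, and Cdk6 from 64.1 and 194 to 243 and 413 CPM, a rise of 0.77 (19.8% higher, 6.13% lower among all tested genes). Cdk4 stood at -0.04 there from a median of 0.59 for all tested genes, with 85.4 and 180 CPM against 210 and 186 CPM. The fall of Cdk4 over this step was thus seen in the sum of all cells and in cells with Mki67 or Top2a, at -0.85 (11% higher, 23.1% lower), and not in cells without them. In the TBGR mouse no member met the rule in cells without Mki67 and Top2a over any step, with Cdk4 at 0.42 for the CD122 step (8.94% higher, 13.4% lower) and at -0.42 for the step to T-bet int (11.6% higher, 13.8% lower) and Ccnd2 at 0.34 for the step to T-bet high (16.1% higher, 9.84% lower). Cdk6 was too rare for the rule there, with 63, 69, 39 and 17 transcripts from CD122-T-bet- to T-bet high cells. Its levels were 74.2, 145, 125 and 26.9 CPM, so its change in these cells was not assessed by the rule. No member met the rule in the steps of the C-myc fl/fl mouse either, with Ccnd2 at 0.21, -0.17 and -0.07 (0.858% and 3.86%, 1.44% and 0%, and 4.47% and 2.44% of all tested genes higher and lower). At its CD122 step, however, Ccnd2 went from 275 to 679 CPM in these cells. The median taken off there was 1.09, over 233 tested genes.

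Comparing cells with and without Mki67 or Top2a inside each population, nearly all Cdkn2c transcripts lay in the former in several groups. Of these transcripts, 28 of 30 in TBGR CD122+T-bet-, 50 of 52 in TBGR T-bet int, 33 of 36 in C-myc fl/fl T-bet int and 20 of 21 in C-mycD/DCd4 CD122-T-bet- cells lay in cells with either transcript. In C-mycD/DCd4 CD122+T-bet- cells 0 of 2 did, in TBGR T-bet high cells 2 of 7 and in TBGR CD122-T-bet- cells 1 of 2. Cells with either transcript made up much of the groups named first, at 59.7%, 66.7%, 66.4% and 46.9% of their cells in that order. Set against the transcripts of all genes, Cdkn2c had log2 ratios of 2.45, 2.69, 1.85 and 3.02 there in cells with over cells without. The uncentred log2 ratio of cells with over cells without had an interval above 0 for Cdkn2c in 5 of 10 groups, for Cdk4 in 7 and for Cdk6 in 6.

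Cdk4 and Cdk6 also lay higher in cells with Mki67 or Top2a in most groups. In CD122-T-bet- cells Cdk4 had 504 against 161 CPM in the C-myc fl/fl and 404 against 133 CPM in the C-mycD/DCd4 mouse, and Cdk6 had 362 against 65.6 CPM and 387 against 130 CPM. C-mycD/DCd4 CD122+T-bet- cells showed neither, at 154 against 197 CPM for Cdk4 and 280 against 337 CPM for Cdk6, with counting intervals that overlapped. Ccnd2 had the other direction, with an interval below 0, in C-mycD/DCd4 CD122-T-bet- (129 against 365 CPM), TBGR T-bet int (676 against 918 CPM), C-myc fl/fl T-bet int (593 against 726 CPM) and C-myc fl/fl T-bet high cells (418 against 615 CPM). Both libraries showed this in the first and second of these groups, but 2 of 4 C-myc fl/fl T-bet int libraries (842 against 707 and 668 against 311 CPM) and 1 of 4 T-bet high libraries (476 against 437 CPM) went the other way. Cdkn1b did so in TBGR T-bet high (41.5 against 161 CPM) and C-mycD/DCd4 CD122+T-bet- cells (71.3 against 170 CPM). The 41.5 CPM rest on 3 transcripts in 10 cells, of which 7 came from library 2, so cell set and library cannot be told apart there. Ccnd3 lay higher in cells with Mki67 or Top2a in CD122-T-bet- cells of the C-mycD/DCd4 (89.4 against 28.1 CPM) and C-myc fl/fl mice (47.4 against 2.12 CPM). No other group had a Ccnd3 interval above 0. In these C-mycD/DCd4 cells with Mki67 or Top2a, 43 transcripts of Ccnd3 stood beside 62 of Ccnd2. Cells with Mki67 or Top2a had more transcripts, with medians of 5581 to 7451 against 3488.5 to 5845.

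**Figure D5:**
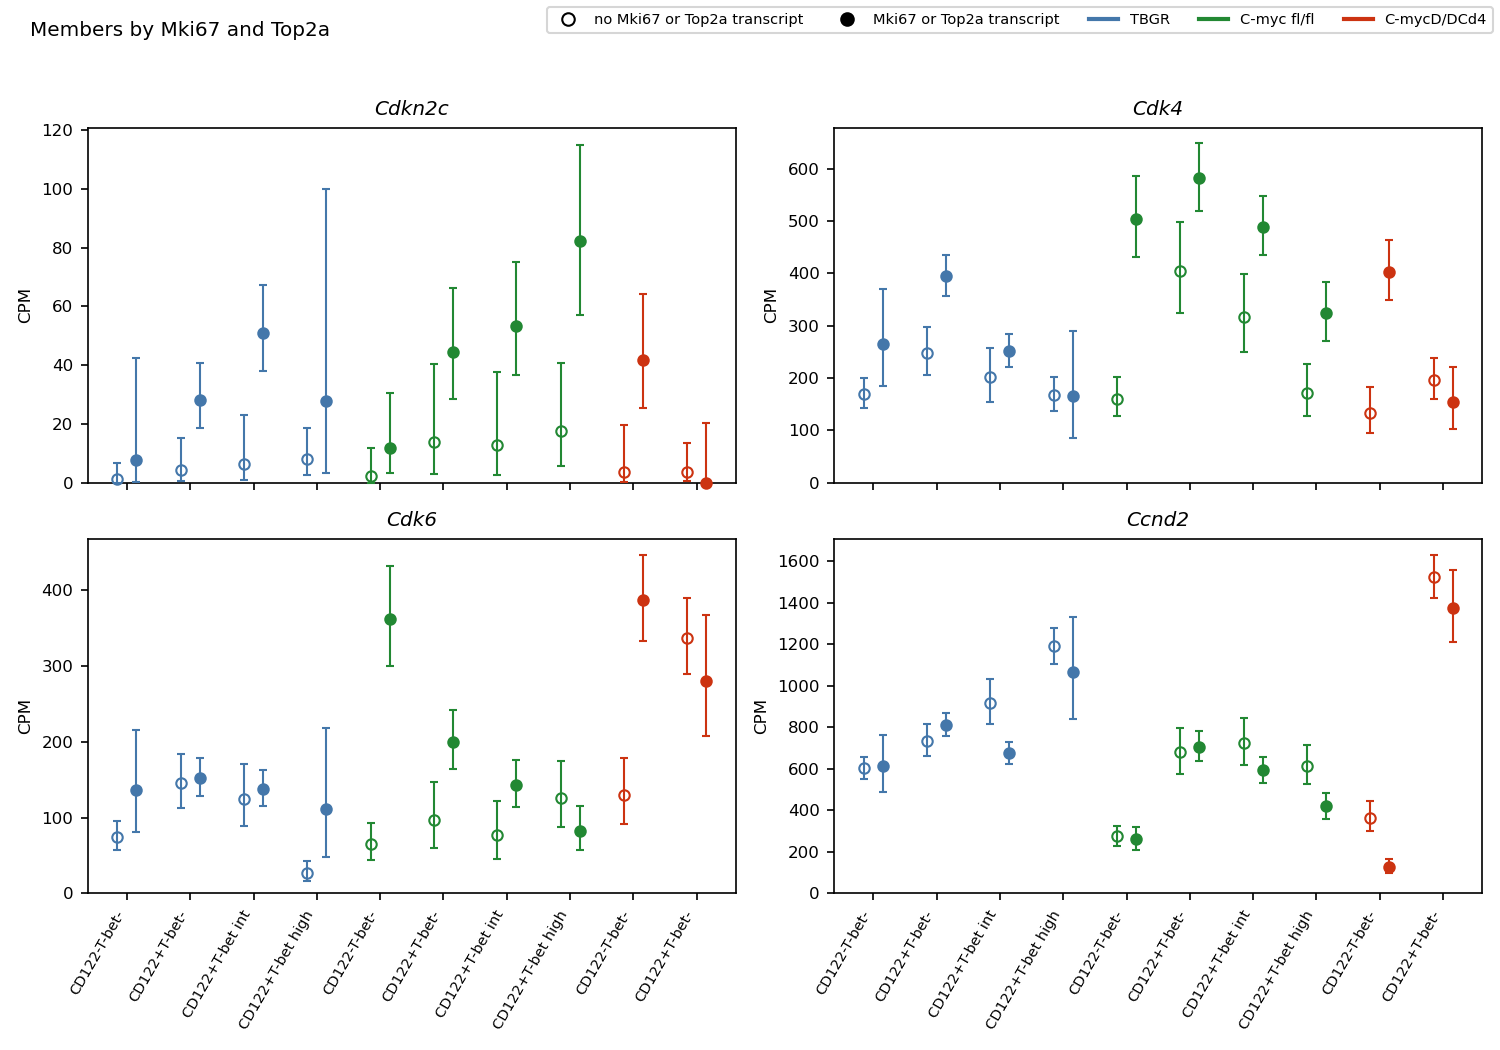
CPM of Cdkn2c, Cdk4, Cdk6 and Ccnd2 on linear axes in cells with (filled) and without (open) a Mki67 or Top2a transcript, in the 10 groups, with 95% Poisson intervals over the summed cells. Cdkn2c lies higher in filled than open points except in C-mycD/DCd4 CD122+T-bet- cells, and Ccnd2 there stands at 1377 and 1524 CPM.

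Of 36 other genes of the G1/S pathway, 34 were in the tables and 2 to 8 passed 100 transcripts in a comparison. At the CD122 step, Cks1b and Cks2, small subunits of CDK complexes, were higher in the TBGR mouse (1.19 and 2.37). At the step to T-bet int of that mouse Ccna2, the S phase cyclin, was higher (1.01). In the C-mycD/DCd4 mouse Cks2 (-2.47) and Ccna2 (-3.62) were lower and Foxo1, a factor that induces Cdkn1b in resting cells, was higher (2.15). Against the C-myc fl/fl mouse, CD122+T-bet- cells without C-myc had lower Cks1b (-3.08), Cks2 (-2.49) and E2f4 (-1.54) and higher Foxo1 (1.03). Their 10 S phase genes summed to 865 against 2085 CPM, with 7 of the 8 that passed lower. To T-bet high in the TBGR mouse, Ccna2, Cks1b, Cks2 and Foxo1 were lower (-2.97, -3.01, -0.95 and -1.0). The C-myc fl/fl mouse had none of the listed G1/S genes called in its 3 steps, and the CD122-T-bet- comparison of the C-myc genotypes had none either.

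Over the 28 values of a library and population, which share mice and libraries, the genes most like each member among 2769 with at least 500 transcripts were found by Pearson's r of log2(CPM + 10). For Ccnd2 they were the immediate early gene Ier2 (0.89), Shisa5 (0.89) and Zfp36 (0.88), which encodes an RNA decay factor. For Cdk4 they were Eif5a (0.92), a translation factor, Set (0.90) and Ldha (0.88), lactate dehydrogenase A. For Cdk6 they were Myb (0.75), Atpif1 (0.74) and Smarca5 (0.72), and for Cdkn2c Racgap1 (0.85), which acts in cytokinesis, Asf1b (0.78) and Khsrp (0.78). For Cdkn1b they were Pcmtd1 (0.88), Arhgef2 (0.87) and Mia3 (0.86), for Cdkn2d Smc1a (0.82), Phf6 (0.80) and H3f3b (0.79), for Ccnd3 Ppp6r1 (0.80), Itpr2 (0.78) and Fyb (0.78) and for Rb1 Nsd1 (0.78), Lipa (0.73) and Rnf144a (0.71). Among the members, r ranged from -0.41, for Cdk4 with Cdkn1b and with Ccnd3, to 0.65 for Ccnd3 with Cdkn1b.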

How the data were processed

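Single IELPs were prepared by CEL-Seq2. The authors demultiplexed reads with bcl2fastq 2.17.1.14, aligned them to GENCODE VM9 gene models with BWA 0.6.2-r126 and, for each gene in each barcode, counted distinct UMIs (6 bases). The deposited values are expected counts, that is, UMIs corrected for repeated draws, not normalized. They were rounded here to whole transcripts.

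The population of each well was read from the barcode lists deposited beside the counts. Cells had at least 2000 transcripts, and none exceeded 2% of Kcnq1ot1. No doublet caller was run on these sorted cells. Log2 ratios were computed after adding 0.5 to each sum, with exact conditional binomial intervals, and levels with exact Poisson intervals. The fold rule, centring, depth, cell filter and weights were varied in 12 alternatives and libraries left out in turn. The calculations (Python 3.11.15) were tested on simulated data. The members and gene lists were chosen with earlier results of these data known. Named genes are the 10 members, pathway genes that met the rule, and the 3 genes most like each member.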

Additional observations from a re-analysis of the deposited data

Results flagged for a closer look

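In groups of 4 libraries, the lowest or highest was set against the others by Dixon's ratio of gap to range, which chance exceeds in about 1 of 20 groups for continuous values and more often where a group holds 2 or 3 transcripts. It exceeded the 95% critical value for Ccnd1 in all 4 C-myc fl/fl populations (a ratio of 1 each), where 1 library held both transcripts and the others held 0, and for Cdkn1a in C-myc fl/fl T-bet int cells (a ratio of 1), where 1 library held all 3 transcripts. For Cdkn2d in C-myc fl/fl CD122-T-bet- cells it was 0.896, with 29.1 CPM in library 1 and 12.2 to 14 CPM in the others.

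The difference between mice over the CD122 step was not tested, but Cdk4 and Cdkn2c were flagged for opposite directions between mice. Each TBGR and C-mycD/DCd4 library held a single population, so the step there compares separate libraries. In the C-myc fl/fl mouse the Cdk4 libraries of both populations overlapped. The uncentred log2 ratio of Cdk4 in the C-mycD/DCd4 mouse less that in the TBGR mouse was -1.63, and less that in the C-myc fl/fl mouse it was -1.51. For Cdkn2c these differences were -6.03 and -5.43. The last value is also the difference of the genotype effect on Cdkn2c between both T-bet- populations (-5.43), and it rests on 2, 21, 27 and 5 transcripts. All tested genes had medians of -0.05, 0.34 and 0.63 over this step in the C-mycD/DCd4, TBGR and C-myc fl/fl mice. Taken from these medians, the difference to the C-myc fl/fl mouse was -0.83 for Cdk4 and -4.75 for Cdkn2c. From its median, Cdk4 stood at -0.65 in the C-mycD/DCd4 and at 0.59 in the TBGR mouse.

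Barcodes that were given no cell held 29 transcripts of Ccnd2, 7 of Cdk4, 10 of Cdk6, 21 of Cdkn1a and 8 of Cdkn1b. For Ccnd2, Cdk4, Cdk6 and Cdkn1b these were 0.248% to 0.80% of the transcripts of the gene, beside 0.535% for all genes. For Cdkn1a they were 18.6%, all in the TBGR T-bet- tables.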

How the results depend on the processing

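No member ratio that met the rule changed direction under any alternative, with centring as set in each. For Cdk4 over the C-mycD/DCd4 step in cells without Mki67 and Top2a, this held only relative to a median of 0.59. Its level there went from 133 to 197 CPM. Of the single member ratios under alternatives, 1399 moved by less than the spread or interval set for them and 125 by more. The counts of called members were small and several moved. In the TBGR CD122 step, 1 called member became 2 with 20 transcripts, 2 without centring, 2 with equal weight of cells, 3 per cell without centring, and 0 with a 2-fold rule, 0 after thinning, 0 with at least 3000 transcripts per cell and 0 in cells without Mki67 and Top2a. Leaving out libraries gave 0 to 2, with 0 without CD122+T-bet- library 1 and 2 without CD122+T-bet- library 2 or CD122-T-bet- library 1. In the TBGR step to T-bet int, 1 became 2 with 20 transcripts and 0 with a 2-fold rule, without centring, with equal weight and in cells without Mki67 and Top2a, and 0 to 1 over libraries left out (0 without T-bet int library 1). In the TBGR step to T-bet high, 2 became 4 with 20 transcripts, 1 with 2-fold, 1 after thinning, 0 in cells without Mki67 and Top2a and 1 to 3 over libraries left out (1 without either T-bet int library, 3 without either T-bet high library). Per cell without centring it stayed 2, but with Cdk4 called in place of Ccnd2.

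In the C-myc fl/fl mouse, 0 in the CD122 step became 1 with 20 transcripts and 0 to 1 over libraries left out (1 without library 4), 0 in the step to T-bet int gave 0 throughout, and 0 in the step to T-bet high became 1 without centring, 1 after thinning, 1 per cell without centring and 0 to 1 over libraries left out (1 without library 2 or 3). Since each of its libraries held both populations of a step, ratios were also taken within libraries as a replicate block, which called 0 members in both steps. In the C-mycD/DCd4 step, 2 became 4 with 20 transcripts, 1 with 2-fold, 1 after thinning and 1 to 3 over libraries left out (1 without either CD122+T-bet- library, 3 without either CD122-T-bet- library). With equal weight of cells it stayed 2, but with Cdk6 called in place of Cdk4. Between the C-myc genotypes, 0 became 3 with 20 transcripts in CD122-T-bet- cells. In CD122+T-bet- cells, 4 became 5 with 20 transcripts, 3 with 2-fold, 3 with at least 3000 transcripts per cell and 3 per cell without centring. It became 2 after thinning and 2 in cells without Mki67 and Top2a, with 3 to 4 over libraries left out (3 without either C-mycD/DCd4 library). The cause was not tested in any of these. Depth limits Ccnd1, Ccnd3, Cdkn1a, Cdkn2c, Cdkn2d and Rb1, which reached 100 transcripts in no group.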
